A study of Rattus norvegicus with 18 samples.

Results

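The genes of the rat major histocompatibility complex (MHC), which carry the prefix RT1, and their partners in antigen presentation were followed in the prefrontal cortex (PFC) of 18 Sprague Dawley pups at postnatal day 14 (P14). Members were the rows whose symbol starts with RT1- together with B2m, Tap1, Tap2, Tapbp, Nlrc5, Cd74 and Ciita, which gave 50 of the 32623 rows in the tables. Of these, 43 were RT1 rows with 41 distinct symbols, since RT1-CE16 and RT1-DMb each stand on 2 rows. The RT1 rows comprised 31 class I rows, 11 class II rows and the pseudogene RT1-P2-ps1.

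RNA-seq was performed on 6 pups per group. SAL pups were the saline controls. The dams of PNO pups were given oxycodone (oxy), an opioid painkiller, by oral gavage at 15 mg/kg/day from parturition until weaning, so these pups were exposed only after birth, through their dam. The dams of IUO pups received 10 mg/kg/day for 5 days, then steps of 0.5 mg/kg/day over 10 days up to 15 mg/kg/day, were then mated, and stayed on oxy until weaning, so these pups were exposed before and after birth. The litter and the sex of each pup were not given in the sources used here, and p-values therefore measure the spread between these pups. Total counts lay between 18381819 and 26084780 per pup, with a median of 22726306.

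MHC class I molecules pair an RT1 heavy chain with beta-2-microglobulin (B2m) and show peptides from inside the cell, which the Tap1-Tap2 transporter carries into the endoplasmic reticulum and tapasin (Tapbp) helps to load. Class II molecules are made mainly by microglia, macrophages and other antigen-presenting cells, where the invariant chain Cd74 guards the groove and the RT1-DM and RT1-DO molecules control peptide exchange. Nlrc5 is the transactivator of class I genes and Ciita that of class II genes. Sprague Dawley rats are outbred, the RT1 region is highly polymorphic, and the number of class I genes differs between RT1 haplotypes.

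B2m was by far the most abundant member, and the classical class II messages were scarce. In the TPM values that the authors deposited, which correct for gene length and can be compared between genes, B2m averaged 220.2 ± 26.7 (SD over 18 pups). The next in order was the classical class I gene RT1-A2, at 16.7 ± 5.76 TPM. Behind it came the class I genes RT1-N2 at 13.5 ± 9.45 and RT1-CE16 at 10.5 ± 5.75 TPM. The values of these 3 genes overlapped widely between pups, and their order was not tested. The 2 rows of RT1-DMb, the beta chain of the peptide exchanger, averaged 8.70 ± 1.91 and 6.81 ± 0.90 TPM. The class I rows RT1-S3, RT1-M3-1 and RT1-T24-4 averaged between 7.87 and 8.34 TPM, and Tapbp 7.56 ± 0.85 TPM. Cd74 stood at 3.70 ± 1.25 TPM, Tap2 at 3.39 ± 0.59 TPM and Tap1 at 2.50 ± 0.59 TPM.

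The classical class II chains lay lower. RT1-Db1 averaged 0.98 ± 0.50 TPM, RT1-Da 0.91 ± 0.43 TPM, RT1-Ba 0.55 ± 0.37 TPM and RT1-Bb 0.40 ± 0.27 TPM. RT1-Db2 and RT1-Ha averaged 0.14 and 0.054 TPM. Of the transactivators, Nlrc5 stood at 0.27 ± 0.083 TPM and Ciita at 0.051 ± 0.032 TPM, the latter resting on 0 to 7 reads per pup. RT1-M2 and 3 pseudogene rows (RT1-P2-ps1, RT1-M3-2-ps and RT1-M1-1-ps) were listed at 0 in every pup. In all, 31 members passed the filter on low counts and 19 did not, none of which exceeded 21 reads in a pup.

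The tissue label was checked against marker genes. Slc17a7, the vesicular glutamate transporter of cortical excitatory neurons, averaged 1340 ± 350 CPM (counts scaled to the size of the library) in SAL, 1510 ± 332 CPM in PNO and 1350 ± 283 CPM in IUO pups. The 10 microglial markers found in the tables summed to between 240 and 320 CPM. The 9 markers of T cells, B cells and other leukocytes summed to 0.602 to 2.95 CPM, and none of them passed the filter. In whole tissue, fewer cells of a type and less RNA per cell cannot be told apart.

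The promoters of 4 members are shown because these members differ in level and in steadiness between pups. B2m and RT1-A2 were the most abundant, and RT1-CE16 and RT1-DMa varied widely. Each sequence is the RefSeq window of the GRCr8 build from 250 bases before to 50 bases after the gene's start, written 5′ to 3′ on the gene's strand. Capitals mark the matches to GGGGATTCCCC (the core of enhancer A, an NF-kB element of class I promoters, as read from the RT1-A2 window), TGATTGG (a Y box, on either strand, where it reads CCAATCA) and GAAA repeated after 2 further bases (GAAA, NN, GAAA, an interferon-type element).
B2m, chr3:129549080-129549379, plus strand: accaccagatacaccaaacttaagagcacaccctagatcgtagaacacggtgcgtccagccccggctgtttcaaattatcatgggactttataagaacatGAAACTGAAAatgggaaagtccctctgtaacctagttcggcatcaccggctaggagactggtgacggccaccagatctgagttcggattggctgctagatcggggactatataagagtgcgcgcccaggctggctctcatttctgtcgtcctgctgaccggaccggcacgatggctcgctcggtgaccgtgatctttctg
RT1-A2, chr20:4872621-4872920, plus strand: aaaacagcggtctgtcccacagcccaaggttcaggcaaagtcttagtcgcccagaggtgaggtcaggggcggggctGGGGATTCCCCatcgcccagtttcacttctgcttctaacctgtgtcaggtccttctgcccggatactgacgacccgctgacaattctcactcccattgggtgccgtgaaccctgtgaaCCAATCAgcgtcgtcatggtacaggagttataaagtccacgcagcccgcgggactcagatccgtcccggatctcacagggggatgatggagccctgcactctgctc
RT1-CE16, chr20:3265394-3265693, minus strand: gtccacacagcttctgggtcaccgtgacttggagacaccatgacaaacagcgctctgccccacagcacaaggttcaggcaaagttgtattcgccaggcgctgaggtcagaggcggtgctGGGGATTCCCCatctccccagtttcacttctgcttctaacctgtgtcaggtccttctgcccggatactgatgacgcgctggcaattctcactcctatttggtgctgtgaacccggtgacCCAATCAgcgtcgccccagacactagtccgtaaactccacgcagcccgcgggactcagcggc
RT1-DMa, chr20:4712286-4712585, minus strand: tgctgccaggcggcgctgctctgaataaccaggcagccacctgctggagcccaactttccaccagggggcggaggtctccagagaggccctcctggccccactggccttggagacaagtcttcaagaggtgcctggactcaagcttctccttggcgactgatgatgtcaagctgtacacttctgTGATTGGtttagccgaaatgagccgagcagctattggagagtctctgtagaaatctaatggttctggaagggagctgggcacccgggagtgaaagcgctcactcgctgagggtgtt
RT1-A2 held the enhancer A letters at positions -174 to -164 from the start and the Y box letters at -56 to -50. RT1-CE16 held both as well, at -131 to -121 and at -12 to -6. B2m held the interferon-type letters at -150 to -141, and RT1-DMa the Y box letters at -66 to -60.

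RefSeq windows were found for 35 of the 48 member symbols. The Y box letters occurred in 19 of the 35 windows (54.3%) and in 7.06% of all 33469 windows of that length, and they were present in 9 of 9 class II windows. The enhancer A letters occurred in 5 member windows (14.3%), those of RT1-A1, RT1-A2, RT1-CE4, RT1-CE10 and RT1-CE16, and in 0.0627% of all windows. The interferon-type letters occurred in 7 member windows (20%), those of B2m, Tap1, Tap2, Tapbp, RT1-N3, RT1-S2 and RT1-S3, and in 3.92% of all. The letters TAGCAAC, the core of an X box, occurred in 5 member windows (14.3%), those of Cd74, RT1-DOb, RT1-Da, RT1-Db1 and Tap2, and in 3.58% of all. Both strands were searched, no motif overlapped another in the 4 printed windows, and the letters were chosen after matches in these windows had been seen, so the shares are descriptions.

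By its estimated counts, RT1-DMa (ENSRNOG00000047864) was the only member that was nearly absent in some pups and plainly present in others. It encodes the alpha chain of the class II peptide exchanger. By the rule used, at most 3 counts in at least 2 pups and at least 30 counts in at least 2 pups, no other member qualified. In CPM scaled by TMM, which compares a gene between pups, the SAL pups had 0.259, 2.88, 3.92, 3.10, 2.64 and 4.36. The PNO pups had 8.27, 3.97, 0.658, 0.130, 3.47 and 0.222. The IUO pups had 0.0391, 8.92, 4.05, 0.125, 6.12 and 2.30. Low pups, those under 1 CPM, were found in every group, 1 of them in SAL, 3 in PNO and 2 in IUO, and the other 12 pups stood at 2.30 CPM or more. The whole range in CPM was 228-fold, and its ends rested on 0.73 estimated reads in IUO pup 1 and 181.3 in IUO pup 2. With limits of 1 and 10 counts, RT1-Bb met the rule in place of RT1-DMa.

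The reads of RT1-DMa were fractional in 17 of 18 pups, that is, shared out by estimation with other rows. Among the 15702 other rows tested, the one whose level ran most strongly against RT1-DMa over the pups was LOC108348072 (ENSRNOG00000047854), which was also fractional in 17 of 18 pups. This row was found by searching these data, so its relation to RT1-DMa is a description with no test. LOC108348072 lay between 13.8 and 19.4 CPM in the 6 pups low in RT1-DMa, and between 5.35 and 17.6 CPM in the other 12. Added together, the rows lay between 11.4 and 21.6 CPM, a 1.90-fold range, and the share of RT1-DMa in that sum went from 0.202% in IUO pup 1 to 62.5% in IUO pup 2. The SD between pups of a group, on the log2 scale, was 2.51 for RT1-DMa, 0.519 for LOC108348072 and 0.218 for their sum. The sum averaged 14.9 ± 2.04 CPM in SAL, 17.1 ± 3.0 CPM in PNO and 15.4 ± 2.14 CPM in IUO pups. In every pup the estimated counts of the rows added up to a whole number within rounding, as when reads are divided between the pair. In IUO pup 2, for example, they were 181.3 for RT1-DMa and 108.7 for LOC108348072. The level of RT1-DMa alone is therefore uncertain. The part of the sharing of reads in these values was not tested.

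**Figure D1:**
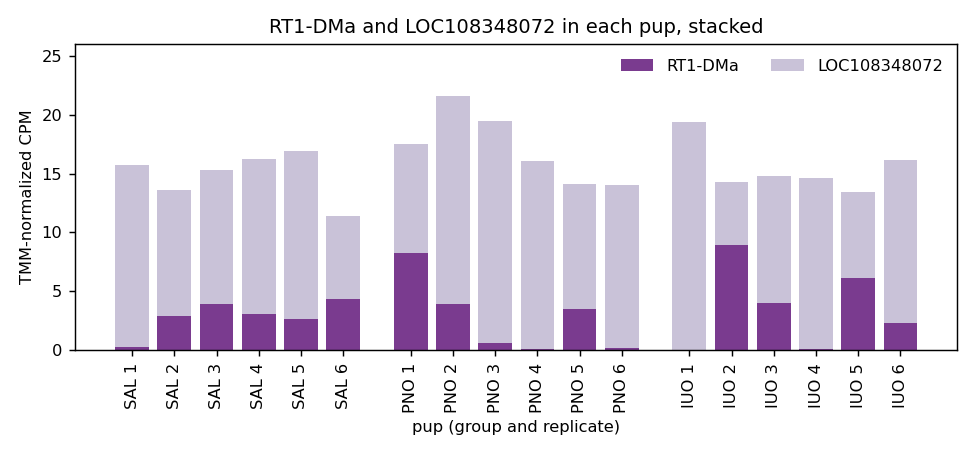
Stacked bars give the TMM-normalized CPM of RT1-DMa (dark) and LOC108348072 (light) in each of the 18 pups, by group and replicate. RT1-DMa went from 0.0391 to 8.92 CPM, and the height of the stack from 11.4 to 21.6 CPM.

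The partner chain RT1-DMb showed no such split. Its rows ranged 1.66-fold and 1.90-fold over the 18 pups, from 3.87 to 6.43 CPM and from 4.29 to 8.14 CPM. Both rows had fractional counts in all 18 pups. In each pup these added up to a whole number, as when reads are divided between the rows. The rows are therefore not separate measurements, and the level of either row alone is uncertain. RT1-DOb, a chain of the molecule that restrains RT1-DM, ranged from 0.639 to 5.72 CPM, an 8.95-fold range with both ends in PNO pups. RT1-DOa had at most 4 reads in any pup.

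RT1-N2 and RT1-CE16 were the class I members that varied most for genes of their level. RT1-N2 had 2.39, 4.79 and 9.38 CPM as lowest, median and highest in SAL, 0, 6.15 and 15.9 CPM in PNO, and 2.33, 7.67 and 21.2 CPM in IUO pups. The groups overlapped, and the zero belonged to PNO pup 4, where a count of 0 allows a level of up to 0.147 CPM (3 counts, counting error only). The counts of RT1-N2 were fractional in 17 pups, and this limit does not cover reads that were assigned to other rows. RT1-CE16 had 2.33, 5.69 and 7.39 CPM in SAL, 1.09, 3.73 and 11.3 CPM in PNO, and 1.66, 5.25 and 10.8 CPM in IUO pups. Its highest and lowest pups were both PNO pups, a 10.4-fold range. RT1-CE1 also ranged 10.3-fold, from 0.432 CPM in PNO pup 4 to 4.45 CPM in PNO pup 3.

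Several class I rows were extreme in the same pups. PNO pup 4 was lowest for RT1-N2, RT1-CE4 (2.01 CPM) and RT1-CE1, and highest for RT1-CE16, RT1-A1 (11.3 CPM) and RT1-CE7 (4.44 CPM). PNO pup 6 was lowest for RT1-CE16 and highest for RT1-CE4 (10.2 CPM), and second to IUO pup 2 for RT1-N2. RT1-M6-1 and RT1-M6-2 were both lowest in SAL pup 1, at 0.141 and 0.199 CPM. These pups were picked for their values, and no test was made of them. The counts of all 19 class I rows tested were fractional in at least 16 pups, so reads were divided with other rows and the level of a single row is uncertain. Which rows shared them was not tested. In contrast, the 6 classical class II rows had fractional counts in at most 2 pups.

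**Figure D2:**
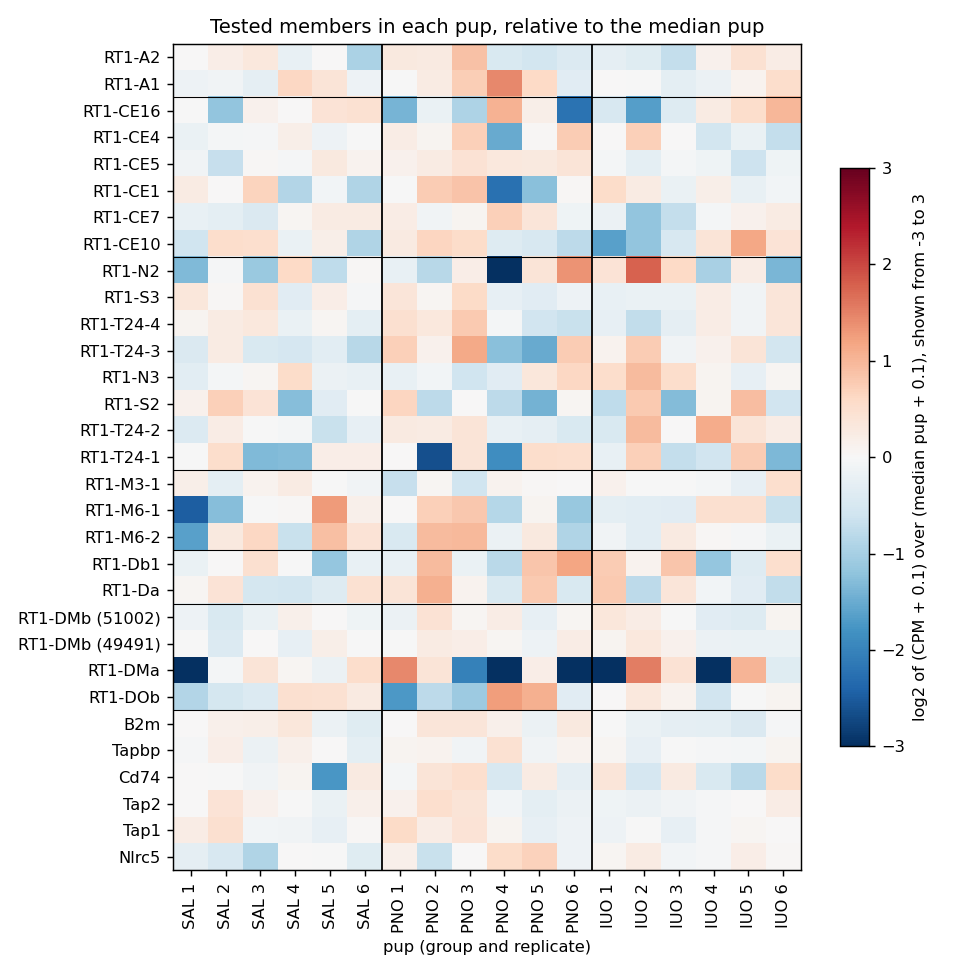
Colours give, for the 31 members tested (rows, grouped by class) and 18 pups (columns), the log2 ratio of CPM to the median pup, with 0.1 CPM added and the scale limited to -3 and 3. RT1-DMa is dark in low pups of every group, and RT1-N2, RT1-CE16, RT1-CE1, RT1-M6-1 and RT1-T24-1 each have pups far from the median, while B2m, Tapbp, Tap1, Tap2 and RT1-DMb stay pale.

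Summed over rows, class I was steadier than its parts. The 31 class I rows added up to between 84.9 TPM in PNO pup 4 and 137.3 TPM in IUO pup 5, a 1.62-fold range, with 105.6 ± 10.1 TPM in SAL, 108.1 ± 15.9 TPM in PNO and 112.3 ± 16.8 TPM in IUO pups. The 10 RT1-CE rows added up to 24.3 to 40.6 TPM, and the 2 RT1-A rows to 11.8 to 34.0 TPM. The 8 RT1-N, RT1-S and RT1-T24 rows had the widest range, from 17.9 to 69.9 TPM, and the 11 RT1-M rows went from 9.36 to 19.7 TPM. The 11 class II rows added up to 17.1 to 38.0 TPM, a 2.22-fold range, of which the 6 classical rows gave 1.87 to 4.78 TPM.

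**Figure D3:**
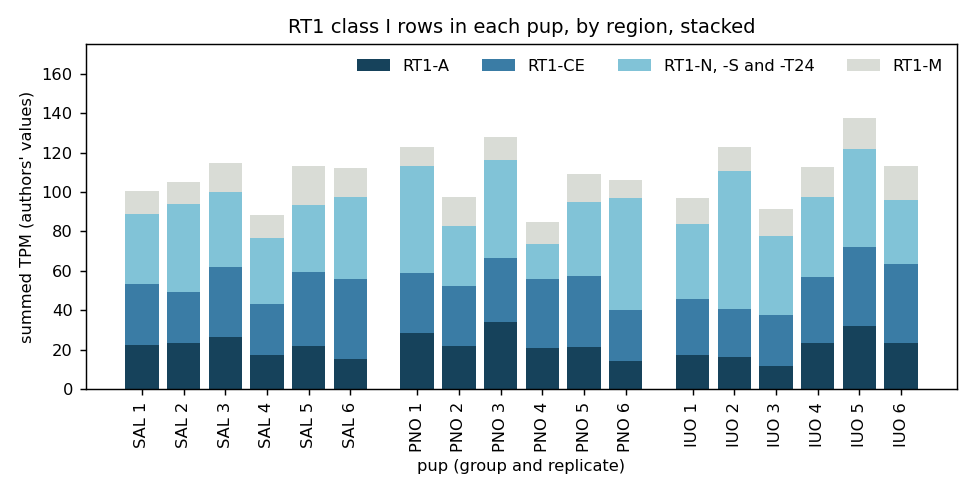
Stacked bars give the summed TPM, as deposited, of the RT1-A, RT1-CE, RT1-N, -S and -T24, and RT1-M class I rows in each pup. The total lay between 84.9 and 137.3 TPM, while the RT1-N, -S and -T24 layer went from 17.9 to 69.9 TPM.

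To set the spread of each member against genes of like abundance, the SD between pups of a group on the log2 CPM scale was compared with that of all tested genes within 0.5 log2 CPM. RT1-N2 had an SD of 1.73, larger than 99.4% of its 1448 neighbours. RT1-DMa had an SD of 2.07 with a prior count of 2, larger than 98.8% of 1152 genes, and RT1-CE16 had 0.928, larger than 96.2%. RT1-CE1 followed at 90.04%, RT1-DOb at 88.9% and RT1-M6-1 at 88.0%. At the other end stood RT1-DMb (the row ENSRNOG00000049491) at 11.1%, Tapbp at 12.95%, Nlrc5 at 15.7%, Tap1 at 19.6%, Tap2 at 22.6% and RT1-CE5 at 24.1%. In all, 3 of 31 members lay at or above 95%, and 9 lay below 50%. Of the tested members outside RT1, B2m, at 64.6%, and Cd74, at 75.6%, lay highest.

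**Figure D4:**
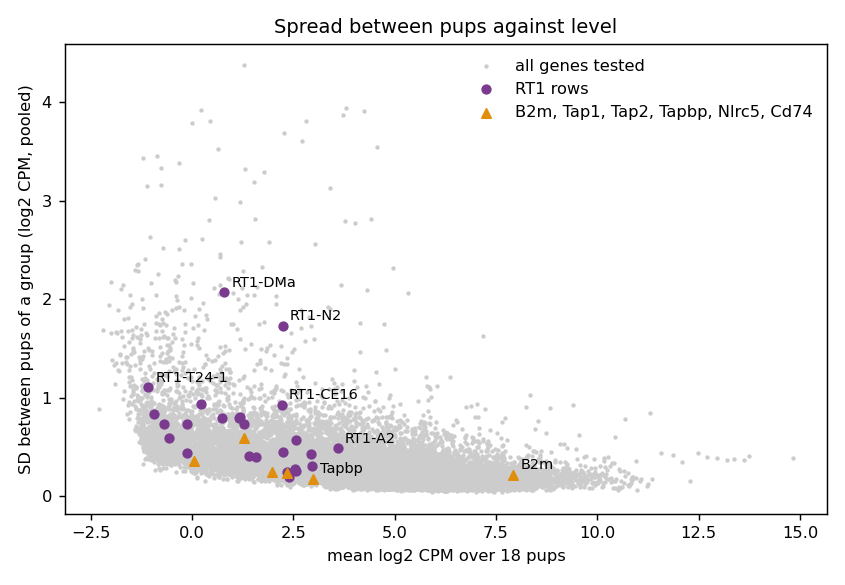
Each point is a gene, with its mean log2 CPM over 18 pups on the x axis and its SD between pups of a group, pooled over the groups, on the y axis (grey, all 15703 genes tested; purple circles, RT1 rows; orange triangles, the other members tested). RT1-DMa (2.07) and RT1-N2 (1.73) stand above most genes of their level, and Tapbp (0.175) lies near the lower edge.

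Members known to work together were compared over the 18 pups in 7 pairs. Tap1 and Tap2, the subunits of the peptide transporter, followed each other, with Pearson's r of 0.733 (permutation p = 0.00061, adjusted p = 0.00427) and Spearman's rho of 0.752 (permutation p = 0.00054, adjusted p = 0.00378). Without the 2 pups farthest from the median of Tap1, r was 0.764, and within the groups it was 0.823 in SAL, 0.723 in PNO and 0.49 in IUO pups. Both counts were fractional in 10 pups, and in 8 of these their sum was whole (within 0.005), as when reads are divided between the pair, and the part of this in r was not tested. Cd74 and the class II beta chain RT1-Db1 gave r of 0.622 (permutation p = 0.00423, adjusted p = 0.0148), but rho of 0.513 had an adjusted p of 0.108, and r fell to 0.454 without the 2 farthest pups. Within the groups that r was 0.817, 0.28 and 0.755 in SAL, PNO and IUO pups. The other 5 pairs did not pass the adjustment. B2m with Tapbp gave r of 0.487 (adjusted permutation p = 0.0898) and Cd74 with RT1-Da 0.456 (adjusted permutation p = 0.093). Ciita with Cd74 gave 0.313 (adjusted permutation p = 0.268). Nlrc5 with its known targets B2m and Tap1 gave -0.299 and -0.202 (adjusted permutation p = 0.268 and 0.421). No r is given for RT1-DMa and RT1-DMb, since the estimated levels of RT1-DMa fall into separate clusters of pups.

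The groups were then compared, to ask whether exposure after birth (PNO against SAL), exposure before and after birth (IUO against SAL) or the added exposure before birth (IUO against PNO) went with a change in antigen presentation genes. By edgeR's quasi-likelihood test, no member was called at an adjusted p under 0.05 in any of these comparisons, against a background of 0%, 0% and 0.0637% of the 15703 genes tested. DESeq2 called 0, 0 and 1 members, against 0.00637%, 0.312% and 2.78% of all genes. limma-voom called 0, 0 and 2 members, against 0%, 0.274% and 12.9% of all genes. At an unadjusted p under 0.05, 2, 1 and 2 members passed, and the shares over all genes were 4.5%, 6.88% and 15.3%. With the added demand of a 1.5-fold change, 0, 1 and 0 members passed, against 1.24%, 1.6% and 3.82% of all genes. The median log2 fold change of the 31 members was 0.14, 0.04 and -0.12, that of all genes tested 0.00, -0.01 and 0.00. These medians are small and depend on the tool, since limma-voom gave 0.0012, -0.03 and 0.0025, and the second turned to -0.02 without IUO pup 2 and to -0.04 without IUO pup 5. All comparisons share groups, so they are not independent of each other.

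RT1-CE5 and B2m came nearest to a call, both lower in IUO than in PNO pups. RT1-CE5 (ENSRNOG00000000723), a class I gene of the RT1-C/E region, had 3.0, 4.93 and 6.09 CPM as lowest, median and highest in SAL, 5.38, 6.13 and 6.72 CPM in PNO, and 3.16, 4.52 and 4.75 CPM in IUO pups. Every IUO pup lay below every PNO pup. No other member had groups without overlap in any comparison, and over all genes tested the groups did not overlap in 0.108% (PNO and SAL), 0.745% (IUO and SAL) and 1.66% (IUO and PNO). The log2 fold change of IUO against PNO was -0.51 (SE 0.15, edgeR adjusted p = 0.127), and PNO against SAL gave 0.35 (SE 0.15, edgeR adjusted p = 0.912). DESeq2 called RT1-CE5 between IUO and PNO at an adjusted p of 0.0319 and limma-voom at 0.0359, beside 2.78% and 12.9% of all genes, and over all alternatives its adjusted p went from 0.0319 to 0.261.

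B2m (ENSRNOG00000017123), the light chain common to class I molecules, had 248, 270, 274, 311, 215 and 190 CPM in the SAL pups, 246, 313, 315, 273, 217 and 299 CPM in the PNO pups, and 243, 213, 203, 199, 182 and 239 CPM in the IUO pups. Of the IUO pups, 4 lay below the lowest PNO pup, and the groups overlapped in the others. The means were 251 ± 43.6 CPM in SAL, 277 ± 39.4 CPM in PNO and 213 ± 23.8 CPM in IUO pups (SD, n = 6 each). The log2 fold change was -0.38 (SE 0.12, edgeR adjusted p = 0.152) for IUO against PNO and -0.24 (SE 0.12, edgeR adjusted p = 0.748) for IUO against SAL. Between IUO and PNO limma-voom, which called 12.9% of all genes there, called B2m at an adjusted p of 0.0141, DESeq2 did not (adjusted p = 0.0649), and the range over all alternatives was 0.0141 to 0.306. B2m had whole counts in every pup, so no reads of it were shared out.

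RT1-T24-2 (ENSRNOG00000000787), a class I gene of the RT1-T24 cluster, was the only member past the unadjusted p and 1.5-fold limits, in IUO against SAL. Its lowest, median and highest levels were 0.462, 0.706 and 0.942 CPM in SAL, 0.556, 0.816 and 1.06 CPM in PNO, and 0.552, 0.999 and 1.84 CPM in IUO pups. IUO pups 2 and 4, at 1.62 and 1.84 CPM, stood above all others, and the remaining IUO pups reached no more than 1.06 CPM. The log2 fold change was 0.69 (SE 0.28, edgeR unadjusted p = 0.0249, adjusted p = 0.663). Without IUO pup 2 it was 0.55 (edgeR unadjusted p = 0.0732) and without IUO pup 4 it was 0.50 (edgeR unadjusted p = 0.0904). Without SAL pup 1 or SAL pup 5 the unadjusted edgeR p was 0.0542 and 0.0584.

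Nlrc5, the class I transactivator, was among the 5 members of smallest p in both comparisons with SAL. It had 0.477, 0.769 and 0.994 CPM in SAL, 0.580, 1.04 and 1.65 CPM in PNO, and 0.925, 1.01 and 1.18 CPM in IUO pups, with overlap between the groups. The log2 fold change against SAL was 0.51 (SE 0.23, edgeR adjusted p = 0.912) for PNO and 0.42 (SE 0.23, edgeR adjusted p = 0.809) for IUO. RT1-A1, a classical class I gene, had 3.37, 3.74 and 6.35 CPM in SAL, 3.20, 5.57 and 11.3 CPM in PNO, and 3.31, 4.11 and 5.96 CPM in IUO pups. Its log2 fold change was 0.48 (SE 0.26, edgeR adjusted p = 0.912) for PNO against SAL and -0.52 (SE 0.26, edgeR adjusted p = 0.352) for IUO against PNO. PNO pup 4 was the highest pup, and without it these values were 0.21 and -0.25. RT1-CE7 gave -0.45 (SE 0.23, edgeR adjusted p = 0.369) for IUO against PNO. RT1-T24-3 gave 0.67 (SE 0.38, edgeR adjusted p = 0.912) for PNO against SAL and 0.54 (SE 0.38, edgeR adjusted p = 0.897) for IUO against SAL. The first of these was 0.43 without PNO pup 3, and limma-voom gave 0.0307 and 0.28. RT1-Db1 gave 0.67 (SE 0.45, edgeR adjusted p = 0.912) for PNO against SAL, and RT1-N3 0.38 (SE 0.24, edgeR adjusted p = 0.854) for IUO against SAL. RT1-Db1 was at 0.43 without PNO pup 6 and at 0.29 with limma-voom, and RT1-N3 at 0.22 without IUO pup 2.

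**Figure D5:**
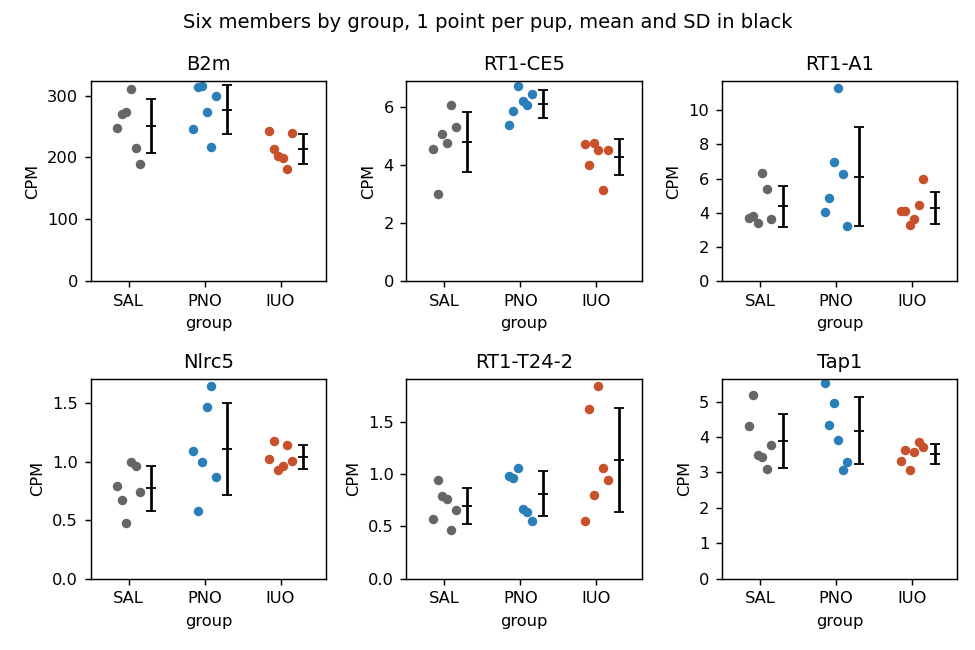
Points give the CPM of B2m, RT1-CE5, RT1-A1, Nlrc5, RT1-T24-2 and Tap1 in each of 6 pups per group, with the mean and SD in black, on axes that start at 0. The IUO pups lie below all PNO pups for RT1-CE5 alone, and the high RT1-T24-2 values of IUO are 2 pups.

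The transporter and loading genes lay close together in the groups. Tap1 had 3.10, 3.64 and 5.19 CPM as lowest, median and highest in SAL, 3.07, 4.12 and 5.52 CPM in PNO, and 3.08, 3.60 and 3.85 CPM in IUO pups. Tap2 had medians of 5.09, 4.93 and 4.61 CPM, and Tapbp medians of 7.68, 8.24 and 7.59 CPM. On the class II side, Cd74 had medians of 2.50, 2.69 and 2.42 CPM and RT1-Da medians of 0.514, 0.709 and 0.488 CPM. For RT1-DMa the log2 fold change was -0.03 for PNO and 0.32 for IUO against SAL, and 0.35 between IUO and PNO, with an SE of 0.91 in each, so a change of several-fold could not have been told from no change. RT1-Bb, a classical class II beta chain, was not tested because of its low counts. It had 4, 9, 5, 11, 6 and 16 reads in SAL, 3, 1, 7, 13, 10 and 6 reads in PNO, and 1, 0, 7, 3, 1 and 1 reads in IUO pups. Of the IUO pups, 5 lay below the lowest SAL pup. With no filter on low counts its log2 fold change was -1.97 (SE 0.62, edgeR adjusted p = 0.644) for IUO against SAL.

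Further genes of antigen presentation were not called by edgeR, and a few were by the other tools. Of 45 further genes tested, covering peptide supply, endosomal proteases, MHC regulators and the interferon gamma pathway, none was called by edgeR in any comparison, and 2, 2 and 7 passed an unadjusted p under 0.05 (PNO with SAL, IUO with SAL, IUO with PNO), beside 4.5%, 6.88% and 15.3% of all genes tested. The smallest p belonged to Nfya, a subunit of the factor that binds the Y box, between IUO and PNO, with a log2 fold change of 0.41 (SE 0.10, edgeR adjusted p = 0.105). Its mean was 25.6 ± 4.23 CPM in SAL, 21.6 ± 1.64 CPM in PNO and 28.8 ± 3.59 CPM in IUO pups. In that comparison DESeq2 called 1 of the 45 genes, Nfya (adjusted p = 0.0181), and limma-voom called 8, 4 of them higher and 4 lower, among them Nfya (adjusted p = 0.0205), beside 2.78% and 12.9% of all genes. In both comparisons with SAL these tools called 0 of the 45. The lysosomal proteases Lgmn and Ctsl gave -0.22 and -0.21 in the same comparison (edgeR adjusted p = 0.177 and 0.21). In IUO against SAL the smallest p belonged to the interferon-induced Mx2 (-0.46, edgeR adjusted p = 0.673), Rfx5, a class II promoter factor (-0.24, edgeR adjusted p = 0.705), and the interferon-induced Rsad2 (0.81, edgeR adjusted p = 0.77). In PNO against SAL it belonged to the kinase Jak2 (-0.25), Nfya (-0.24) and Mx2 (-0.40), each with an edgeR adjusted p of 0.912.

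Cell type markers were set beside these results. The summed microglial markers had medians of 275 CPM in SAL, 286 CPM in PNO and 268 CPM in IUO pups, and those of border macrophages 16.3, 16.6 and 16.8 CPM. Of the 10 microglial markers tested, none was called by edgeR in IUO against PNO, and the smallest adjusted p belonged to Tmem119, with a log2 fold change of -1.32 (edgeR adjusted p = 0.0524). DESeq2 and limma-voom called Tmem119 lower in IUO against PNO (adjusted p = 0.000102 and 0.0104) and in IUO against SAL (adjusted p = 0.000137 and 0.0485), and none of the other 9. The 4 oligodendrocyte markers were lower in IUO than in PNO pups at an unadjusted p under 0.05, with a median log2 fold change of -1.42 (smallest edgeR adjusted p 0.102), and DESeq2 and limma-voom called all 4 lower (adjusted p from 0.0104 to 0.0187). Their sums ranged from 1330 to 8080 CPM in SAL, from 2350 to 12600 CPM in PNO and from 1730 to 4640 CPM in IUO pups. Of the 3 astrocyte markers, 2 were lower in IUO than in PNO pups at an unadjusted p under 0.05, Gfap with a log2 fold change of -0.35 and Aqp4 with -0.29 (edgeR adjusted p = 0.187 and 0.299), and limma-voom called Gfap (adjusted p = 0.038). The meningeal marker Dcn was lower at that limit, with -0.78 (edgeR adjusted p = 0.321). The other meningeal markers tested, Col1a1 and Lum, went the other way, with 0.33 and 0.21 (edgeR adjusted p = 0.649 and 0.685). The erythroid marker Alas2 was higher at an unadjusted p under 0.05, with 1.26 (edgeR adjusted p = 0.193). In IUO against SAL, where RT1-T24-2 passed the unadjusted limits, Tmem119 was lower at an unadjusted p under 0.05, with -1.34 (edgeR adjusted p = 0.0997). Higher at that limit were the erythroid markers Alas2, with 1.31, and Hbb, with 0.99 (edgeR adjusted p = 0.53 and 0.721), and the border macrophage marker Pf4, with 0.71 (edgeR adjusted p = 0.642). Of the 5 border macrophage markers, 3 were higher and 2 lower. In PNO against SAL the microglial P2ry12 (-0.37) and the endothelial Kdr (-0.25) were lower and the oligodendrocyte marker Mog (0.74) higher at that limit, each with an edgeR adjusted p of 0.912. Of the 10 microglial markers, 7 were higher and 3 lower there, with a median log2 fold change of 0.08. Of the 5 endothelial markers, 1 was higher and 4 lower, and all 4 oligodendrocyte markers were higher. The sums of the 4 striatal markers ranged from 52.5 to 829, from 59.5 to 748 and from 196 to 1090 CPM in SAL, PNO and IUO pups. Their medians were 127, 129 and 348 CPM. All 4 were higher in IUO pups, with a median log2 fold change of 0.98 against PNO and 0.60 against SAL. None passed an unadjusted p under 0.05 in any comparison (smallest edgeR adjusted p 0.47 and 0.93). The summed choroid plexus markers ranged from 3.66 to 536, from 3.49 to 955 and from 2.44 to 249 CPM in SAL, PNO and IUO pups, and the erythroid ones had medians of 406, 426 and 616 CPM. The medians were 221, 213 and 202 CPM for endothelium, 93.3, 93.3 and 75.1 CPM for meninges, and 1410, 1440 and 1290 CPM for astrocytes. The part of these differences in the values of B2m, RT1-CE5 and RT1-T24-2 was not tested.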

How the data were processed

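Total RNA from the PFC of 18 P14 pups was sequenced by the authors as TruSeq libraries on 1 flow cell. The authors deposited 1 table per pup with expected counts, in which reads that match several genes are divided by estimation. TPM, also deposited, corrects for gene length and has the same sum in each pup. The deposited FPKM was not used. The aligner, quantifier, build, annotation and test are not given in the sources used here.

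Groups came from the sample titles. The rounded expected counts went into edgeR 4.0.16 under R 4.3.3 (TMM, filterByExpr, glmQLFit and glmQLFTest, 1 model over 18 pups, two-sided), with Benjamini-Hochberg adjustment over 15703 genes. A member was called at an adjusted p under 0.05, and members past the study's 1.5-fold limit and an unadjusted p of 0.05 were counted as well. TPM served for levels between genes and TMM CPM for levels between pups. In log2 CPM the prior count was 2, and for Ciita 0.1 CPM was added in the correlations, which used 100000 permutations. The test was checked on simulated data. Named were B2m and the other 6 genes outside RT1, on/off rows, the 8 RT1 rows of highest TPM, class II rows, the 5 members of smallest p in each comparison, and the 3 pathway genes of smallest p. Marker lists are given by sums or by single genes. The cortical excitatory sum is not reported here. Tmem119, RT1-CE1, RT1-CE4, RT1-M6-1 and RT1-M6-2 were named after their values were seen. Members and lists were chosen with earlier results of these data known. Alternatives were DESeq2 1.42.0, limma-voom (limma 3.58.1) with quality weights, other size factors, other filters, 12 pups only, a replicate block, summed rows and each pup left out in turn. The 45 pairs of pups within groups differed by 11.2 to 185 times the sampling variance, so none were copies of 1 library. Each pup counted as 1 replicate. This check cannot show whether pups shared a litter, which was not given. Other steps used Python 3.11.15 with scipy 1.17.1, pandas 2.3.3, numpy 2.4.6 and, for plots, matplotlib 3.10.9.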

Additional observations from a re-analysis of the deposited data

Results flagged for a closer look

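The 31 members tested gave 93 groups of 6 pups. In 6 of these, 1 pup lay so far from the others on the log2 CPM scale that its gap to the nearest pup, as a share of the range, was above Dixon's 95% critical value for 6 samples, and chance alone gives about 1 in 20 groups. All were low pups. Cd74 stood at 0.671 CPM in SAL pup 5 against 2.33 CPM in the next pup (share of range 0.825). RT1-DMa stood at 0.259 CPM in SAL pup 1 against 2.64 CPM (0.803). RT1-CE16 stood at 2.33 CPM in SAL pup 2 against 5.31 CPM (0.709). RT1-N2 was at 0 in PNO pup 4 against 3.40 CPM (0.708), and RT1-CE4 stood at 2.01 CPM in the same pup against 6.08 CPM (0.677). RT1-DOb stood at 1.54 CPM in IUO pup 4 against 2.33 CPM (0.629).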

How the results depend on the processing

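With size factors by median of ratios, no library size normalization, the 12 compared pups only, rows of a symbol summed and the replicate block, the counts of called members and of members past the unadjusted p and 1.5-fold limits were as reported. DESeq2 called 1 member between IUO and PNO (RT1-CE5) and limma-voom called 2 (B2m and RT1-CE5), with 436 and 2028 genes called in all against 10 by edgeR, and the cause was not tested. By DESeq2 the log2 fold change of RT1-CE5 was -0.51, and by limma-voom it was -0.50 and that of B2m -0.42. limma-voom counted 2 members past the unadjusted limits in PNO against SAL (Nlrc5 and RT1-A1) and 2 in IUO against PNO (RT1-A1 and RT1-T24-2), beside 1.53% and 8.62% of all genes. With no filter on low counts 46 members were fitted, and 1, 4 and 4 passed these limits, beside 2.31%, 2.75% and 4.72% of all genes, and all but RT1-T24-2 were rows under the filter. With the stricter filter 26 members were left and 0 passed in IUO against SAL, since RT1-T24-2 was no longer tested. With each pup left out in turn, that count went from 0 to 2 in PNO against SAL (above 0 without PNO pup 2, 4, 5 or 6 or SAL pup 4), from 0 to 1 in IUO against SAL (0 without IUO pup 2 or 4 or SAL pup 1 or 5) and from 0 to 1 in IUO against PNO (1 without IUO pup 1 or 6 or PNO pup 1 or 6), and 0 members were called at the adjusted p. Directions turned for RT1-DMa, RT1-CE5 and Nlrc5, none of them called there, and for the median of the members. The log2 fold change of RT1-CE5 in IUO against SAL was 0.037 with limma-voom, and that of Nlrc5 in IUO against PNO was 0.0034 and 0.0423 without PNO pup 4 or 5 and -0.22 to 0.0423 over all pups left out. RT1-DMa summed with LOC108348072, an alternative chosen after seeing the data, gave 0.21 in PNO against SAL and -0.15 in IUO against PNO. RT1-DMa gave -1.84 and -1.50 with limma-voom and -0.71 and -0.32 with the replicate block, in PNO and in IUO against SAL, where edgeR had -0.03 and 0.32. Over pups left out RT1-DMa went from -0.78 to 0.22, from -0.19 to 0.58 and from -0.15 to 1.09 in PNO with SAL, IUO with SAL, and IUO with PNO. Replicate numbers did not pair the pups, since same-numbered pups correlated above 0.1 in 4, 1 and 3 of 6 pairs in these comparisons and best with their own number in 2, 0 and 2. With the replicate block 0 members were called, and 0, 1 and 0 passed the unadjusted limits. Depth limits RT1-Bb, Ciita and the other members under the filter, whose counts stay at or below 21 reads per pup.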
